A study of Rattus norvegicus with 6 samples.

Results

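The genes described here encode proteins that coat cytoplasmic lipid droplets, or that release fatty acids from the triacylglycerol stored in them. They were picked by gene name from the deposited count table of rat tail discs and comprise the perilipins Plin1, Plin2, Plin4 and Plin5, the CIDE genes Cidec and Cidea, the lipases Pnpla2 and Lipe, and the lipase regulators Abhd5 and G0s2. All 10 names were found among the 30562 genes of the table. Of the 10, 9 passed the filter on low counts, as did 15537 genes in all, and Plin5 did not.

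A lipid droplet is a core of neutral lipid under a phospholipid monolayer, and perilipins on its surface govern how far lipases can reach the core. PLIN1, PLIN4 and the droplet fusion factor CIDEC are typical of adipocytes, whereas PLIN2 coats droplets in most cell types, foamy macrophages included. Breakdown starts with adipose triglyceride lipase (ATGL, the product of Pnpla2), which ABHD5 activates and G0S2 inhibits, and hormone-sensitive lipase (Lipe) and monoacylglycerol lipase (Mgll) follow. The disc itself is largely avascular and poor in oxygen.

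Bulk RNA was sequenced from tail discs of male Sprague-Dawley rats, 12 weeks old at surgery and wild type by the labels, whose discs had been punctured with a needle. The treated group was injected in the disc with AF-PTK@LEV@SPP1, a hybrid of liposomes and bacterial outer membrane vesicles that carries an siRNA against Spp1 and a peptide for the annulus fibrosus on a linker cut by reactive oxygen species, and the Control group received PBS. The injected volume was 10 μL with 1 mg/kg of siRNA, and the first injection came 24 h after the puncture. The study's methods name disc tissue of 3 rats per group and no time for its collection, and its results give 8 weeks of treatment. The labels instead give 14 days, an untreated control and macrophages of mice sorted for F4/80 and CD11b, a sort that would remove adipocytes. Col1a1 stood at 31887 to 64018 normalized CPM (counts divided by the effective size of their library) in the 6 libraries and Adgre1, which encodes F4/80, at 15.3 to 42.8. The siRNA is described as one against mouse Spp1. Spp1 itself was at 8114, 4408 and 4414 CPM in Control 1, 2 and 3 and at 8047, 6894 and 8451 in AF-PTK@LEV@SPP1 1, 2 and 3. These ranges overlapped, and no difference passed (log2 fold change 0.31, SE 0.37, edgeR adjusted p = 0.628).

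Library totals were 17942989, 16565291 and 17489851 counts in Control and 17074981, 15560728 and 17855184 counts in AF-PTK@LEV@SPP1. At these depths 3 counts, taken as the smallest measurable level, corresponded to 0.154 to 0.193 CPM, a limit that covers counting error alone. Control 2 and Control 3 differed little beyond sampling noise (1.33 times the variance of counting, against 51.3 or more for any other pair within a group). They were counted as 1 sample, so that means and fits rest on 2 distinct Control samples and 3 AF-PTK@LEV@SPP1 samples. For part of the results, fits that kept all 6 libraries are given beside them.

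The coat and lipolysis genes did not move together. Plin2, the perilipin of most cell types, fell to about 0.509 of its Control level. Plin1, Plin4, Cidec, Lipe and Pnpla2, put together here by their values and not from a fixed list, were higher in each treated library than in any Control library, with log2 fold changes of 1.53 to 2.70, but over distinct samples none of these 5 passed in edgeR, the main test, or limma-voom, whereas all 5 did in DESeq2. G0s2 also lay above Control, by 0.34. Cidea and Abhd5 overlapped between the groups, and Plin5, with 1 to 10 counts per library, was not tested.

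In edgeR's quasi-likelihood test with Benjamini-Hochberg adjustment over all genes, 0 of the 9 tested members were higher at an adjusted p under 0.05, where 1.13% of all genes were, and 1 was lower, where 2.57% were. At an unadjusted p under 0.05 these counts were 5, beside 12.4% of all genes, and 1, beside 13.0%. limma-voom called 0 higher on the same samples, where it called 0.895% of all genes, and 1 lower (2.03%). DESeq2 called 5 higher, where it called 7.29% of all genes, and 1 lower (9.27%). With all 6 libraries kept, edgeR called 3 members higher (Plin4, Lipe and Pnpla2) against 8.20% of all genes, and 1 lower against 9.93%, and with a block for replicate it called 0 higher against 2.04% and 1 lower against 2.89%. The treated samples lay wholly above the Control samples for 6 of the 9 members, as for 23.9% of all genes, and wholly below for 1, as for 21.9%. The median log2 fold change was 1.53 over the 9 members and 0.05 over all genes. The shares of all genes given here apply to each gene list below as well.

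**Figure D1:**
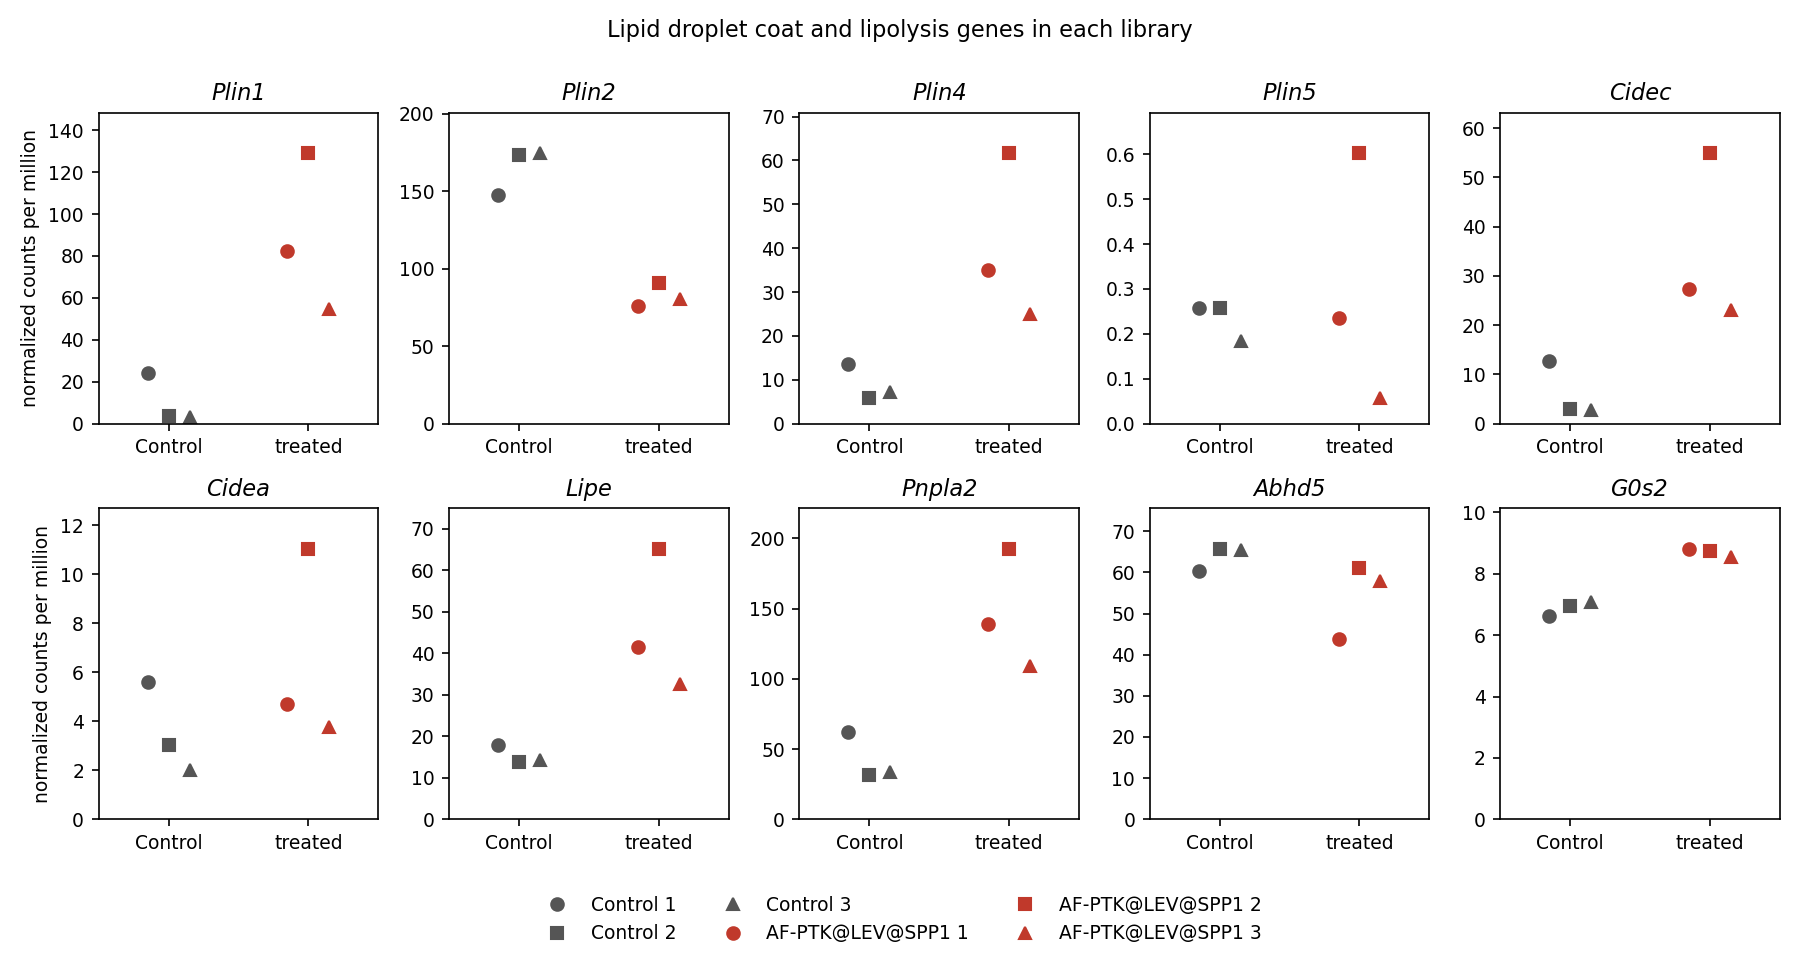
CPM of each of the 10 genes (vertical axes from 0, a scale for each gene) in the 3 Control and 3 AF-PTK@LEV@SPP1 libraries, 1 point per library. Plin2 lies at 147 to 174 in Control and 75.8 to 90.6 in treated libraries, whereas Plin1 lies at 2.93 to 24.3 and 54.5 to 129.

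Among the perilipins, Plin2 (ENSRNOG00000007060, chromosome 5, 101154411 to 101242319, minus strand) had close values within each group. Coordinates are those of the deposited table, whose rat build is not named. Its level was 147, 173 and 174 CPM in Control 1, 2 and 3, and 75.8, 90.6 and 80.6 CPM in AF-PTK@LEV@SPP1 1, 2 and 3. Each treated library thus lay below each Control library, and the means were 161 ± 18.7 (SD, n = 2) and 82.3 ± 7.52 (SD, n = 3). Plin2 fell by 0.97 on the log2 scale (SE 0.14, 95% interval -1.32 to -0.62), with an edgeR adjusted p of 0.0369 over distinct samples and 0.00531 over 6 libraries. A two-sided exact permutation test of its means gave p = 0.1, the smallest that 3 samples against 2 allow. The log2 value stayed between -1.10 and -0.95 under every alternative fit, but the adjusted p rose to 0.0615 without Control 1, when the near-identical pair is the lone Control sample and is assumed to vary like the treated ones, and to 0.0740, 0.0880 and 0.163 without AF-PTK@LEV@SPP1 1, 2 and 3, and without either of the last 2 libraries 0 genes of the whole table passed. In bulk tissue of this kind, fewer cells of a type and less RNA per cell cannot be told apart.

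Plin1 (ENSRNOG00000015086, chromosome 1, 133664892 to 133676828, minus strand), the perilipin that guards the large droplet of adipocytes, had the largest log2 fold change and SE of the 9. It stood at 24.3 CPM in Control 1, at 3.47 and 2.93 in Control 2 and 3, and at 82.2, 129 and 54.5 in the treated libraries. Control 1 therefore lay between the near-identical Control pair and the treated libraries, and the lowest treated library was still above it. The log2 fold change was 2.70 (SE 0.93, 95% interval 0.35 to 5.04), which did not pass in edgeR over distinct samples (adjusted p = 0.158) or over 6 libraries (adjusted p = 0.0580). Without Control 1, and so against a lone Control sample, the fitted value was 4.77 (adjusted p = 0.0614). DESeq2 gave 2.66 with an adjusted p of 0.00878.

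Plin4, a perilipin with a long repeat region that is abundant in fat cells, also had Control 1 between the Control pair and the treated libraries. Its values were 13.5, 5.91 and 7.14 CPM in Control 1, 2 and 3, and 35.0, 61.6 and 24.9 in the treated libraries, again with AF-PTK@LEV@SPP1 2 as the highest. The log2 fold change was 2.02 (SE 0.52), with an adjusted p of 0.0985 over distinct samples and 0.0246 over 6 libraries. The 3′ neighbour Hdgfl2 on the other strand shares 11 bases with Plin4, and its counts were 549 to 711 in Control and 540 to 645 in treated libraries. Plin5, which tethers droplets to mitochondria in oxidative tissue, is a neighbour on chromosome 9 and on the same strand (939747 to 946120, beside 929176 to 938056 for Plin4). Plin5 had 5, 4 and 3 counts in Control and 4, 10 and 1 in the treated libraries, and no difference could be detected at that depth.

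The ratio of Plin1 to Plin2 within a library, a pairing chosen after its values were seen, is a description and was not tested, and of the 2 genes only Plin2 passed in edgeR and limma-voom. It was 0.165 in Control 1, 0.0200 and 0.0168 in Control 2 and 3, and 1.08, 1.42 and 0.676 in AF-PTK@LEV@SPP1 1, 2 and 3. Ratios of counts are comparable between libraries but not between genes, since no transcript lengths were used. The lowest treated ratio was above the highest Control ratio, and Control 1 again lay between.

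The CIDE genes differed from each other. CIDEC (also called FSP27) enlarges droplets by passing lipid between touching pairs, and Cidec was at 12.8, 3.02 and 2.81 CPM in Control 1, 2 and 3 against 27.4, 54.9 and 23.1 in the treated libraries. These values did not overlap, but the log2 fold change of 2.17 (SE 0.75) did not pass in edgeR (adjusted p = 0.159 over distinct samples and 0.0532 over 6 libraries), and DESeq2 gave 2.14 with an adjusted p of 0.0179 over distinct samples. Against the lone Control sample left without Control 1 it was 3.57 (adjusted p = 0.0919). Cidea, a relative best known from brown and beige fat, was at 5.59, 3.02 and 2.01 CPM in Control and 4.70, 11.0 and 3.76 in treated libraries. Control 1 was thus above AF-PTK@LEV@SPP1 1 and 3, and the log2 fold change was 0.68 (SE 0.61, adjusted p = 0.519). That value was 0.07 without AF-PTK@LEV@SPP1 2 (adjusted p = 0.949) and 1.35 without Control 1 (adjusted p = 0.366), again against a lone Control sample.

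Both lipases lay higher in every treated library. Pnpla2 (ENSRNOG00000069673, chromosome 1, 196552723 to 196557805, plus strand), which encodes the enzyme that removes the first fatty acid from triacylglycerol, was at 61.8, 31.6 and 33.9 CPM in Control 1, 2 and 3 and at 139, 192 and 109 in AF-PTK@LEV@SPP1 1, 2 and 3. The means were 47.3 ± 20.6 (SD, n = 2) and 147 ± 42.2 (SD, n = 3), and the groups did not overlap. The log2 fold change of Pnpla2 was 1.63 (SE 0.38, 95% interval 0.68 to 2.58), with an adjusted p of 0.0816 over distinct samples and 0.0189 over 6 libraries.

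Lipe (ENSRNOG00000020546, chromosome 1, 80965627 to 80984310, minus strand), whose product acts mainly on diacylglycerol, was at 18.0, 13.8 and 14.2 CPM in Control and at 41.6, 65.1 and 32.6 in the treated libraries. Its Control values lay closer together than those of Plin1 or Cidec, and the log2 fold change was 1.53 (SE 0.34), with an adjusted p of 0.0748 over distinct samples and 0.0150 over 6 libraries. Lipe shares 788 bases with a gene on the opposite strand that had 0 to 5 counts per library, and reads in the shared stretch could not be assigned here. For Lipe, Pnpla2 and Plin4 the call thus depended on how the near-identical Control pair was counted and also on the fit. With the pair as 1 sample DESeq2 called all 3 genes (adjusted p = 0.000787, 0.000764 and 0.00186), and with 6 libraries and the replicate block edgeR called none of them (adjusted p = 0.0612, 0.0637 and 0.0841).

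The regulators of ATGL had smaller fitted changes than Pnpla2, and the difference between the genes was not tested. Abhd5, the co-activator, was at 60.3, 65.7 and 65.5 CPM in Control 1, 2 and 3 and at 43.9, 61.1 and 58.0 in the treated libraries. These ranges overlapped, and the log2 fold change was -0.22 (SE 0.17, 95% interval -0.65 to 0.21, adjusted p = 0.452). G0s2, the inhibitor, was at 6.62, 6.94 and 7.08 CPM in Control and at 8.81, 8.74 and 8.54 in treated libraries, a small shift without overlap. The log2 fold change of G0s2 was 0.34 (SE 0.16, 95% interval -0.06 to 0.74), which did not pass (adjusted p = 0.245).

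Relative to its regulators, Pnpla2 was therefore higher in the treated libraries. The ratio of Pnpla2 to Abhd5 was 1.02, 0.480 and 0.518 in Control 1, 2 and 3 and 3.17, 3.15 and 1.88 in the treated libraries. Its ratio to G0s2 was 9.34, 4.55 and 4.79 in Control and 15.8, 22.0 and 12.8 in treated libraries. These ratios, also chosen after their values were seen, describe mRNA and not enzyme activity, and neither was tested.

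**Figure D2:**
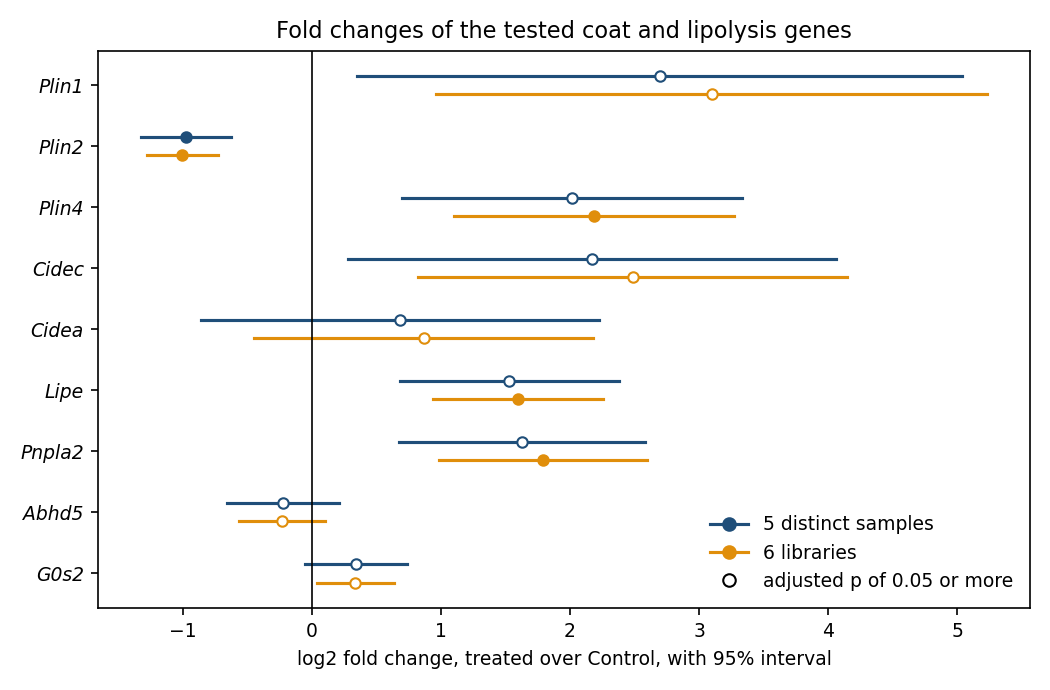
Log2 fold change (treated over Control, horizontal axis) of the 9 tested genes with 95% intervals, fitted over 5 distinct samples or over 6 libraries. Filled points have an adjusted p under 0.05, which Plin2 reached in both fits (-0.97 and -1.00) and Plin4, Lipe and Pnpla2 over 6 libraries only.

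Of the other genes of the droplet surface, 15 of 18 could be tested, and 0 were higher and 1 lower. The gene that fell was Hilpda, whose hypoxia-induced product binds ATGL and inhibits it. Hilpda was at 23.0, 30.3 and 29.8 CPM in Control 1, 2 and 3 and at 9.75, 8.19 and 10.2 in the treated libraries, without overlap. It fell by 1.51 on the log2 scale (SE 0.18, edgeR adjusted p = 0.0280), and the adjusted p was 0.0611, 0.0853 and 0.138 without AF-PTK@LEV@SPP1 1, 2 and 3. The ratio of Pnpla2 to Hilpda, likewise picked after the values were known and not tested, was 2.69, 1.04 and 1.14 in Control and 14.3, 23.5 and 10.6 in the treated libraries. Among the remaining relatives of the members, Plin3 had a log2 change of 0.02 (SE 0.27, adjusted p = 0.976), and Cideb was not tested, at 0.257 to 0.359 CPM in Control and 0.228 to 0.422 in treated libraries. The list's median log2 fold change was -0.01, at unadjusted p under 0.05 it held 1 higher and 1 lower gene, and DESeq2 and limma-voom also called 0 higher and 1 lower, while edgeR over 6 libraries called 1 higher and 1 lower.

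Among the members and the 4 lists of lipid genes, Plin2 and Hilpda alone passed as lower in the edgeR fit over distinct samples. Cebpb, Lipa and Adcy3 also lay wholly below Control, with log2 values of -0.99, -0.64 and -0.48, and missed the threshold there (adjusted p = 0.0536, 0.0587 and 0.0691) but passed over 6 libraries (adjusted p = 0.0106, 0.0115 and 0.0137). The promoter sequences of Plin2 and Hilpda are shown because both hold ACGTG, the core of hypoxia response elements, which was searched on both strands of the 250 bases before each RefSeq transcription start (GRCr8) after the values had been seen. Windows were given for 9 of the 10 members, Lipe being the exception, and Plin2 was the only 1 of these 9 with a match, in 1 of its 2 windows. Over all 33469 windows, 16.6% held the core. It was 1 of 6 short and 5 longer motifs searched. CACGTG, which contains the core, was in 5.59% of all windows and in those of 1 member (Plin2), AGGTCA in 14.1% and 2 members (Plin5 and Abhd5), CCAAT in 34.0% and 2 (Plin1 and Plin5), TATAAA in 12.9% and 0, and TTGCGCAA in 0.140% and 0. Of the longer motifs, a PPAR element made of 2 copies of AGGTCA with 1 base between was in 0.0508% of all windows, its 2 looser forms in 0.368% and 0.759%, an NF-κB element with 3 free bases in 4.75% and a fixed form of it in 0.0956%, each in 0 members and not in Hilpda. The match of Plin2 lies 67 to 62 bases before the start and is the palindrome CACGTG, also an E-box, so that both strands match, and that of Hilpda starts 47 bases before. A match is a string of letters and not a measured binding site. The sequences are given 5′ to 3′ with the core in capitals, for Plin2 from the minus strand of chr5:106229019-106229268 and for Hilpda from the plus strand of chr4:58836213-58836462.
Plin2: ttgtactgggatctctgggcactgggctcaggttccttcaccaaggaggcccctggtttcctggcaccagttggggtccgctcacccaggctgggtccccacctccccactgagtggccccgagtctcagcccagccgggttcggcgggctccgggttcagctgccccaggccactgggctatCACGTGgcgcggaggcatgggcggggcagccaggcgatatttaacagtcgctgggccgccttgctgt
Hilpda: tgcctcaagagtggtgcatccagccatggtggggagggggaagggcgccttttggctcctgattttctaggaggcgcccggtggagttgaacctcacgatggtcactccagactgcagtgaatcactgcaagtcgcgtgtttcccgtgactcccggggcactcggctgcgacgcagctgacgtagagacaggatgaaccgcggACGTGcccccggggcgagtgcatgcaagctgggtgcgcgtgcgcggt

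Of the other genes of lipolysis and its hormonal control, 22 of 23 were tested, and 0 passed in either direction over distinct samples in edgeR or limma-voom. At unadjusted p under 0.05, 11 were higher and 2 lower, DESeq2 called 8 higher and 2 lower, and edgeR over 6 libraries called 6 higher and 2 lower. The median log2 fold change was 0.71. Fabp4, a fatty acid carrier of adipocytes and the list's gene with the most counts, was at 239, 47.3 and 52.5 CPM in Control 1, 2 and 3 and at 543, 756 and 397 in treated libraries (log2 fold change 1.97, SE 0.72, adjusted p = 0.175). Irs1, an adaptor of the insulin receptor, whose signal restrains lipolysis, ranked next by counts. It was at 90.9, 111 and 105 CPM in Control and at 168, 130 and 207 in treated libraries, without overlap (log2 fold change 0.75, SE 0.23), with an adjusted p of 0.131 over distinct samples and 0.0438 over 6 libraries. Mgll, the enzyme of the last step, was looked at after its values were seen. It was at 58.3, 38.8 and 38.1 CPM in Control and at 120, 152 and 107 in treated libraries (log2 fold change 1.38, SE 0.25), with an adjusted p of 0.0541 over distinct samples and 0.0100 over 6 libraries.

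Genes that build triacylglycerol and the factors that control lipid genes gave few calls. Of 17 synthesis genes, all tested, 0 passed over distinct samples in edgeR or limma-voom, 4 were higher and 0 lower at unadjusted p under 0.05, and DESeq2 called 3 higher. Acsl1, which charges fatty acids with coenzyme A, was at 94.2, 33.4 and 33.1 CPM in Control and at 153, 243 and 124 in treated libraries (log2 fold change 1.44, adjusted p = 0.179), and for Gpd1 the change was 2.04 log2 units (adjusted p = 0.251). The median of that list was 0.18. Of 10 transcription factors, 0 passed in edgeR or limma-voom, 3 were higher and 1 lower at unadjusted p under 0.05, and DESeq2 called 3 higher and 1 lower. Cebpa and Rxra, the factors with the most counts, stood at 0.41 and -0.06 in log2 fold change (adjusted p = 0.435 and 0.782, not passing), and the median was 0.44. Over 6 libraries, 2 synthesis genes were called higher, and 3 factors were called higher and 1 lower.

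Adipocyte markers moved in the same libraries as Plin1, Plin4, Cidec, Lipe and Pnpla2. The summed level of 12 markers, among them Pck1 and Fabp4 of the lists above, was 1493 CPM in Control 1, 313 and 313 in Control 2 and 3, and 4159, 4506 and 2637 in the treated libraries. Adipoq, which encodes adiponectin, was at 106, 10.3 and 9.88 CPM in Control and at 296, 587 and 195 in treated libraries. For all 12 markers the treated samples lay above the Control samples, as for 23.9% of all genes, with a median log2 fold change of 2.10. Over distinct samples 0 passed in edgeR or limma-voom and 6 in DESeq2 (7.29% of all genes). Over 6 libraries edgeR called 3 (8.20%), and over distinct samples 7 were higher at unadjusted p under 0.05 (12.4%). Car3 had the most counts, at 923, 210 and 208 CPM in Control 1, 2 and 3 and 2924, 2464 and 1708 in treated libraries. Car3 thus held most of the summed level in each library. It was highest in AF-PTK@LEV@SPP1 1, whereas Adipoq was highest in AF-PTK@LEV@SPP1 2. Of the 12 markers, 0 were at or under 3 counts in every library. Of the disc markers, Tbxt, Krt8 and Cd24 likewise had Control 1 between the Control pair and the treated libraries. What part the adipocyte or disc cell content of a sample had in the values of these members was not tested.

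Divided by Adipoq, Plin1 had the steadiest ratio of the members, at 0.230, 0.338 and 0.296 in Control 1, 2 and 3 and at 0.278, 0.220 and 0.280 in AF-PTK@LEV@SPP1 1, 2 and 3. Against the sum of the 12 markers it was less steady, at 1.63%, 1.11% and 0.934% in Control and 1.98%, 2.86% and 2.07% in treated libraries, each of which lay above every Control library. For Cidec it was the other way round. Its ratio to Adipoq was 0.121, 0.294 and 0.284 in Control and 0.0925, 0.0935 and 0.119 in treated libraries, whereas against the marker sum it stayed between 0.658% and 1.22% in all 6. The steadiness of either gene thus depended on the denominator, and the marker sum is mostly Car3.

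Pnpla2 per Adipoq was 0.585 in Control 1 and 0.471, 0.328 and 0.560 in treated libraries, but 3.07 and 3.43 in Control 2 and 3, where Adipoq was lowest. The ratios of Lipe (0.170 in Control 1, 0.111 to 0.168 in treated libraries, 1.34 and 1.44 in Control 2 and 3) and Plin4 (0.128, 0.105 to 0.128, 0.575 and 0.722) followed those of Pnpla2. Plin2 had ratios of 1.40, 16.9 and 17.7 in Control and 0.256, 0.154 and 0.414 in treated libraries. Abhd5 (0.571, 6.39 and 6.63 in Control, 0.104 to 0.298 in treated libraries) and G0s2 (0.0626, 0.675 and 0.716, then 0.0149 to 0.0439) were, like Plin2, highest in the Control pair and lowest in the treated libraries, and so was Cidea (0.0529, 0.294 and 0.204, then 0.0159 to 0.0193). Pnpla2, Lipe and Cidec per Adipoq were ordered the same way, so this order does not set Plin2 apart. Abhd5 and G0s2 themselves had log2 fold changes of -0.22 and 0.34, and the part of Adipoq, the denominator, in the order was not tested.

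**Figure D3:**
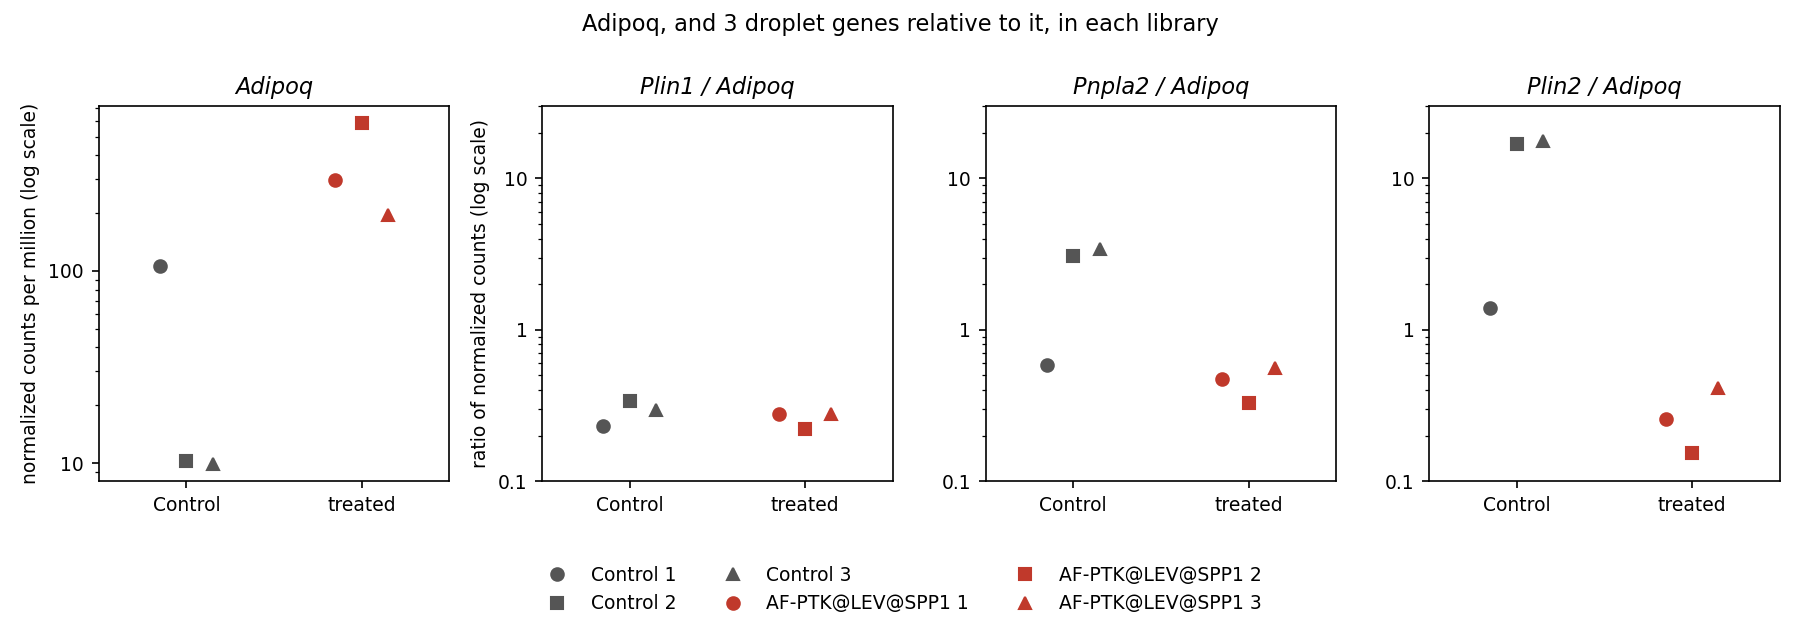
Adipoq in CPM (left, log scale) and the ratios of Plin1, Pnpla2 and Plin2 to Adipoq (log scale, shared range) in each library. The ratio of Plin1 stays between 0.220 and 0.338, whereas that of Plin2 spans 0.154 to 17.7.

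Genes whose profile over the 5 distinct samples was closest to that of Plin1 or Plin2 were sought among 10049 others whose mean log2 CPM reached 3. The nearest to Plin1 were Fmo1, Adipoq, Pck1, Gpd1 and Abcd2, with root mean square differences of centred log2 CPM of 0.14, 0.20, 0.27, 0.31 and 0.35. Their log2 fold changes were 2.04 to 2.77. The nearest to Plin2 were Nfkb2, Rai14, Vash1, Bcl2l11 and Atp2c1, at 0.03, 0.07, 0.07, 0.07 and 0.07. Their log2 values were -1.00, -0.95, -0.94, -0.88 and -0.89. As the genes were picked by their profile over the same samples, these changes follow from the choice and add no support to those of Plin1 or Plin2. Nfkb2, a subunit of NF-κB, was at 30.0 CPM in Control 1, at a mean of 33.6 in the Control pair and at 14.5, 17.6 and 15.9 in the treated libraries.

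Macrophages, which also carry PLIN2-coated droplets, were followed through 11 markers. Their sum was 3139, 2128 and 2105 CPM in Control 1, 2 and 3 and 710, 1969 and 1989 in the treated libraries, and 0 were higher and 2 lower over distinct samples (0 and 4 at unadjusted p under 0.05, 0 and 4 in DESeq2, 0 and 2 in limma-voom, 0 and 3 in edgeR over 6 libraries). Cd68 was at 150, 112 and 116 CPM in Control and at 28.5, 42.1 and 30.9 in treated libraries and fell by 1.97 (adjusted p = 0.0231). Cd14 fell by 1.89 (adjusted p = 0.0119). Without single libraries the adjusted p of Cd68 was 0.0571 (Control 1), 0.0565, 0.0679 and 0.139 (AF-PTK@LEV@SPP1 1, 2 and 3), and that of Cd14 was 0.0679 and 0.130 (AF-PTK@LEV@SPP1 2 and 3). Lyz2, with the most counts, was at 1246 to 1831 CPM in Control and at 271, 1241 and 1400 in treated libraries (log2 fold change -0.68, adjusted p = 0.571). Lyz2 held most of the marker sum in each library but AF-PTK@LEV@SPP1 1, so the sum mainly reflects this gene. In the treated libraries it had the same order as the neutrophil marker S100a8 (99.0, 1009 and 1488 CPM). The markers did not all fall: 10 of the 11 had a log2 fold change below 0 and 1, Cd163, had one above 0. Cd163 was at 54.0, 29.5 and 29.0 CPM in Control 1, 2 and 3 and at 47.1, 142 and 88.2 in the treated libraries. These ranges overlapped, and the difference did not pass in edgeR over distinct samples (adjusted p = 0.246). At or under 3 counts in every library were 0 macrophage markers. Whether the lower Plin2 followed from these cells was not tested.

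Markers of brown fat, muscle and neutrophils had other patterns. Ucp1, the defining gene of brown fat, had at most 4 counts in any library and 0, 1 and 0 in the treated ones, and Elovl3 did not exceed 3. The 7 brown adipocyte genes of the table summed to 57.3, 40.1 and 48.1 CPM in Control and 42.8, 77.3 and 62.2 in treated libraries, with Dio2 holding the most counts (log2 fold change 0.12, adjusted p = 0.844) and 0 of 5 tested genes passing (1 higher and 0 lower at unadjusted p under 0.05; DESeq2 1, limma-voom 0, edgeR over 6 libraries 1). The 10 muscle markers summed to 1036, 1357 and 1366 CPM in Control and 977, 10142 and 2601 in treated libraries, with Acta1 in the lead. AF-PTK@LEV@SPP1 2, the library highest in Plin1, Plin4, Cidec, Cidea, Lipe and Pnpla2, was thus also the highest in muscle markers. The 11 neutrophil markers, led by S100a9, summed to 1227, 197 and 185 CPM in Control and 320, 3180 and 4284 in treated libraries. Ltf was at or under 3 counts throughout. S100a8 overlapped between the groups, at 475, 67.2 and 64.5 CPM in Control and 99.0, 1009 and 1488 in treated libraries. In edgeR, DESeq2 and limma-voom 0 muscle and 0 neutrophil markers passed, and at unadjusted p under 0.05 edgeR had 0 of either. Their part in the members' values was not tested.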

How the data were processed

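The authors deposited counts, whole numbers of reads per Ensembl rat gene for each of 6 libraries, without normalization. The submitters' processing notes name FastQC, Trimmomatic, HISAT2, featureCounts and DESeq2 without versions or roles, and mm10, a mouse build that does not match the rat gene identifiers. The kit was stranded by the labels, but the use of strand in counting was not given in the sources used here.

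All genes were fitted together with edgeR 4.0.16 in R 4.3.3 (TMM normalization, filterByExpr with a minimum count of 10, quasi-likelihood F test, Benjamini-Hochberg adjustment), with Control 2 and 3 summed. Alternatives were all 6 libraries, the replicate number as a block, DESeq2 1.42.0, limma-voom (limma 3.58.1), RLE or library-total scaling, no filter, an absolute log2 fold change above 1, and each library left out. The edgeR, DESeq2 and limma-voom fits over distinct samples, and those with RLE scaling, library totals or no filter, were run on simulated counts. The simulated spread was smaller than that of these samples, so how the fits behave at their spread was not tested. Fits over 6 libraries, with the replicate block or without single libraries were not simulated. CPM used TMM factors, and 5 distinct samples entered the means and the exact permutation tests. The study states 3 animals per group; p-values measure the spread between these samples.

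Members and lists were chosen with earlier results of these data known. Named genes are the members, Plin3 and Cideb, Spp1, from each lipid list the called genes or else the 2 with the highest mean CPM, from each marker list the first, the most abundant and the called genes, and the 5 genes most like Plin1 and Plin2. Mgll, Lipa, Adcy3, Cebpb, Tbxt, Krt8, Cd24 and Cd163 were named outside this rule after their values were seen. So were Adgre1, to check the labelled sort, Elovl3 and Ltf, as markers at or under 3 counts, and Hdgfl2, as a neighbour of Plin4. Of the lists' entries, 150 were found by name, with none matched by synonym.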

Additional observations from a re-analysis of the deposited data

How the results depend on the processing

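No member reversed its direction under any alternative. Of 72 member log2 fold changes in alternative fits, 63 stayed on their side of the threshold, 8 passed only there and 1 was lost. Without single libraries 50 of 54 stayed and 4 were lost, all of Plin2.

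With all 6 libraries 1233 genes were called higher and 1494 lower, with 3 members, 12 other pathway genes and 5 markers higher and 4 pathway genes and 7 markers lower. DESeq2 called 1132 and 1440 genes, 5 members, 14 pathway genes and 12 markers higher, and 4 and 7 lower. Under a block for the replicate number, 307 genes, 3 pathway genes and 3 markers were higher. Without a filter 1 pathway gene was higher and 2 lower, and 2 were lower with library totals. Above a log2 fold change of 1, 0 members were lower. With RLE scaling 2 members lay wholly below Control.

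Without single libraries, genes called higher ranged from 0 to 170 and lower from 0 to 396, members lower from 0 to 1, pathway genes lower from 0 to 1, markers lower from 0 to 2, and members wholly below Control from 1 to 2. Without AF-PTK@LEV@SPP1 2 or 3, no gene of the table passed. Without Control 1 a lone Control sample is left, which is assumed to vary like the others.

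Same-numbered libraries had deviations correlated at -0.34, -0.30 and -0.08, so the numbers were not taken as pairs, and the near-identical Control pair limits this check. Genes near 3 counts, such as Plin5 and Cideb, could not be resolved at this depth.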

Other observations

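Markers of the disc and of its vessels were read in the same fit. The 9 disc and cartilage genes found in the table summed to 18336, 29340 and 29209 CPM in Control 1, 2 and 3 and 39850, 26768 and 43094 in AF-PTK@LEV@SPP1 1, 2 and 3. Col2a1, the cartilage collagen, had the most counts, at 13858, 21110 and 20918 CPM in Control and 25938, 20347 and 31944 in treated libraries (log2 fold change 0.57, SE 0.44, adjusted p = 0.459). The 7 annulus and tendon genes summed to 53650, 74232 and 75079 CPM in Control and 114110, 80941 and 96528 in treated libraries, led by Col1a1 (log2 fold change 0.48, adjusted p = 0.582). In edgeR and limma-voom 0 genes of either list passed over distinct samples. Over 6 libraries edgeR called 1 disc gene higher (Cd24, adjusted p = 0.0196), and with the replicate block 3 (Cd24, Krt8 and Tbxt, adjusted p = 0.0406, 0.0286 and 0.0435), and 0 annulus genes in either fit. Tbxt, a transcription factor of notochordal cells, was at 142, 17.4 and 17.3 CPM in Control and 756, 308 and 332 in treated libraries (log2 fold change 2.54, adjusted p = 0.195 over distinct samples), and Krt8 at 287, 67.0 and 64.6 against 1476, 477 and 523. Cd24 was at 301, 226 and 223 CPM in Control and 1701, 647 and 819 in treated libraries. Control 1 lay between the Control pair and the treated libraries for these 3 genes, as for Plin1, and their part in the members' values was not tested. At unadjusted p under 0.05 edgeR had 3 higher disc genes and 1 higher annulus gene, and DESeq2 called 3 and 2 higher. Control 1 thus held the lowest sums of both lists, and it also lay closest of the Control libraries to the treated ones in adipocyte markers.

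The 7 endothelial markers summed to 521, 646 and 634 CPM in Control and 385, 444 and 453 in treated libraries. Pecam1, an adhesion molecule of endothelial cells and the list's gene with the most counts, was at 195, 276 and 267 CPM in Control and 135, 147 and 163 in treated libraries (log2 fold change -0.66, SE 0.19), with an adjusted p of 0.114 over distinct samples and 0.0295 over 6 libraries. Over distinct samples 0 of the 7 passed in edgeR or limma-voom, 4 were lower at unadjusted p under 0.05, and DESeq2 called 3 lower. Over 6 libraries edgeR called 4 lower, and with the replicate block 0.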
